A study of Mus musculus with 2 samples.

Results

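The genes described here were the secreted ligands, the surface receptors and the secreted inhibitors of the Wnt pathway, taken as every measured gene whose symbol begins with *Wnt*, *Fzd*, *Sfrp* or *Dkk* followed by a digit. There were 36 such genes of 19465 measured, made up of 19 Wnt ligands, 9 Frizzled receptors (*Fzd*), 4 secreted Frizzled-related proteins (*Sfrp*) and 4 Dickkopf genes (*Dkk*). They were followed across tumor, edge and neural spots in 2 cerebellar sections, 1 section per biological replicate. The tumors had grown from HP organoids (+cre in the labels), luciferase-labeled cultures of mammary tumors that Cre had started in mice with HER2 V777L and PIK3CA H1047R. Per the methods they were injected into the cerebellum of 5-month-old C57BL/6 mice, an immunocompetent host of the same strain. The titles name HP-F1 for section 1 and HP-B6 for section 2, while a further label calls both B6-HP, and neither mouse received treatment. There was no section without a tumor, so neural tissue of the same sections served as the comparison. It includes tissue next to the tumor, and some of its spots were led by markers of brainstem neurons.

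Wnt proteins are lipid-modified ligands that bind Frizzled receptors together with the coreceptors LRP5 and LRP6, which stabilizes β-catenin so that it drives target genes with TCF and LEF factors. Other Wnts, of which WNT5A and WNT11 are the usual examples, act largely without β-catenin through ROR and RYK receptors and planar polarity proteins. SFRP proteins carry a Frizzled-like domain and bind Wnts outside the cell, whereas DKK1, DKK2 and DKK4 bind the LRP coreceptors, and DKK3 is a divergent member of its family. In the cerebellum WNT7A is known as a granule cell signal to incoming mossy fibers and WNT3 as a product of Purkinje cells. In the mammary gland Wnt signals act on stem cells and on the growth of ducts.

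Transcripts were counted with the Visium CytAssist assay for formalin-fixed tissue, which hybridizes probe pairs to transcripts, captures them at barcoded positions and counts unique molecular identifiers (UMIs). Each spot covers more than a single cell and may mix cell types. Section 1 gave 63986887 UMIs over 3406 spots under tissue and section 2 gave 71878333 UMIs over 4017 spots. Spots were assigned to regions from marker genes that include none of the 36 genes. Tumor comprised 646 spots with 35047150 UMIs in section 1 and 667 spots with 28310473 UMIs in section 2. The edge, within 2 array steps of the border on either side, comprised 250 and 412 spots, and neural tissue 2404 and 2818 spots. Levels are given as counts per 1000000 UMIs of the summed region (CPM) after scaling by the trimmed mean of M values (TMM), and they are compared within a gene only, since probes of different genes need not capture equally. All values describe RNA of a spot, so fewer cells of a type and less RNA per cell cannot be told apart.

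The 2 tumors differed in their markers before any Wnt gene was considered. The epithelial list (11 genes measured, with *Epcam* and keratins) summed to 54.9 CPM in the tumor of section 1 and to 13846 CPM in that of section 2, and *Epcam* itself stood at 7.12 and 2108 CPM. The fibroblast list ran the other way, with 63797 and 833 CPM, and the macrophage list with 7490 and 1712 CPM. The tumor spots of section 1 therefore lacked the epithelial markers that the label of a mammary tumor would lead one to look for, and each Wnt gene is given for both sections apart. Neural markers summed to 30352 and 29896 CPM in neural tissue, 5063 and 7158 CPM at the edge and 1295 and 1661 CPM in tumor.

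**Figure D1:**
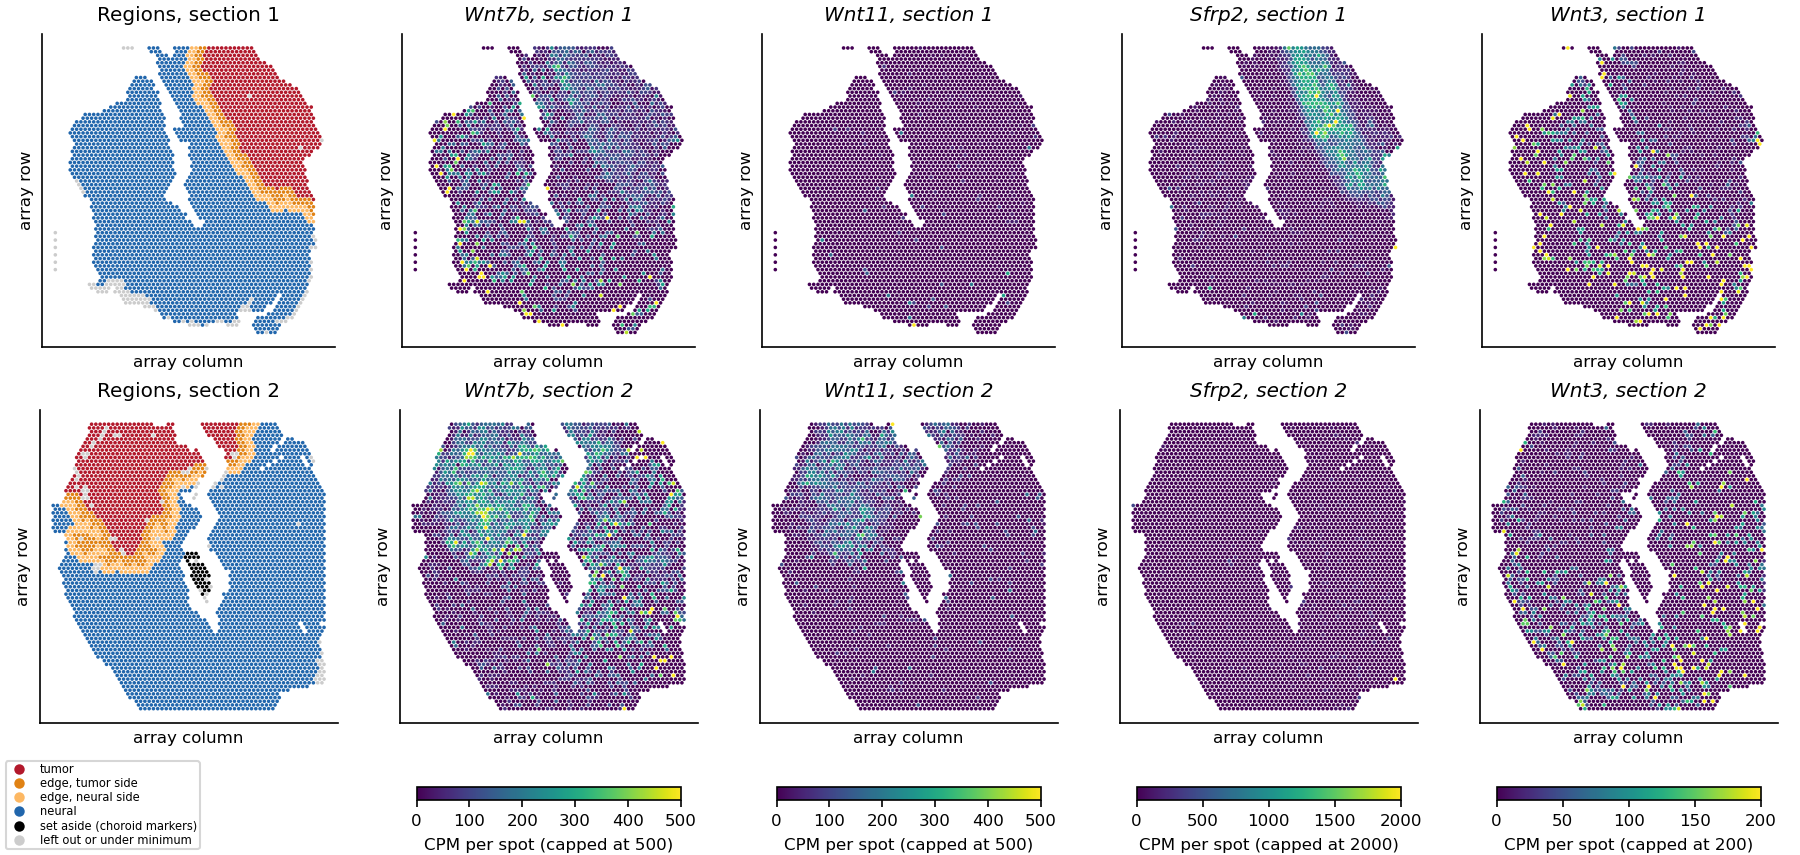
Maps of both sections, with array columns and rows as axes and 1 point per spot under tissue. The left panels show the regions, and the others the level of *Wnt7b*, *Wnt11*, *Sfrp2* and *Wnt3* in CPM of the spot, without TMM scaling and capped as the color bars state. *Wnt11* appears in the tumor of section 2, *Sfrp2* in that of section 1, *Wnt7b* in both tumors and in neural tissue, and *Wnt3* in neural tissue.

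Between tumor and neural tissue 12 of the 36 genes changed. Of them 8 were higher in tumor, the receptors *Fzd1*, *Fzd2*, *Fzd6*, *Fzd7* and *Fzd8* and the ligands *Wnt5a*, *Wnt7b* and *Wnt9a*, and 4 were lower, the receptor *Fzd3*, the ligands *Wnt3* and *Wnt7a* and the inhibitor *Sfrp5*. Over all 19220 genes tested, 14.0% were called higher and 15.8% lower in tumor, beside 8 and 4 of the 36. Calls are from edgeR's quasi-likelihood test on the 6 region sums with the section as a block, at a Benjamini-Hochberg adjusted p under 0.05 over all genes. The median log2 fold change was -0.11 over the 36 genes and -0.13 over all genes. Direction was the same in both sections for 29 of the 36, a count with no share over all genes to set beside it. With library size as the only scaling, under which the median of all genes moved to -0.45, 5 of the 36 were called higher and 6 lower. The shares of all genes above are for TMM and were not counted on this scale.

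Frizzled receptors bind Wnts through an extracellular cysteine-rich domain. *Fzd2*, a receptor used by WNT5A among others, stood at 65.0 and 83.6 CPM in the tumors of sections 1 and 2, at 34.7 and 60.2 CPM at the edge and at 15.9 and 13.5 CPM in neural tissue. In each section the tumor lay above the edge, and both neural values lay below all others. Its level was 4.94-fold higher in tumor, a log2 fold change of 2.31 ± 0.31 (SE, adjusted p = 0.0117, edgeR). *Fzd6*, often linked to planar polarity, went from 10.1 and 12.4 CPM in neural tissue to 25.7 and 36.5 CPM at the edge and 33.6 and 59.9 CPM in tumor. Its groups did not overlap between tumor and neural tissue, and its log2 fold change was 2.00 ± 0.23 (SE, adjusted p = 0.00882, edgeR).

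*Fzd1* stood at 171 and 120 CPM in tumor, 103 and 91.6 CPM at the edge and 39.9 and 59.4 CPM in neural tissue. Here the tumor of section 1 was the higher, and the log2 difference between tumor and neural tissue was 2.08 in section 1 and 1.01 in section 2. *Fzd7*, a receptor known from mammary stem cells, stood at 27.6 and 60.2 CPM in tumor, 29.6 and 52.1 CPM at the edge and 15.2 and 17.1 CPM in neural tissue. In section 1 its edge was thus as high as its tumor. *Fzd8* went from 3.87 and 4.04 CPM to 8.26 and 12.1 CPM. The log2 fold changes of these genes were 1.54, 1.33 and 1.34, with adjusted p of 0.0294, 0.0362 and 0.0313 (edgeR). The call was lost for *Fzd7* (adjusted p up to 0.0950) and *Fzd8* (up to 0.0571) when library size was the only scaling, and for *Fzd7* also when the section was left out of the fit.

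*Fzd3*, a receptor that guides growing axons, was the one receptor lower in tumor. It stood at 9.15 and 17.9 CPM in tumor, 16.2 and 35.5 CPM at the edge and 41.1 and 67.3 CPM in neural tissue. Its order was the same in both sections, and section 2 was higher throughout. The log2 fold change in tumor was -2.04 ± 0.21 (SE, adjusted p = 0.00729, edgeR), but leaving the section out of the fit raised the adjusted p to 0.0566. The other 3 receptors, *Fzd4*, *Fzd9* and *Fzd10*, were not called, and their log2 fold changes lay between -0.74 and -0.10.

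The promoter of *Fzd7* is shown as that of a receptor gene called higher in tumor. Promoter sequences are the 250 bases before the gene start in RefSeq's table for GRCm38.p6, the build also named mm10, and 24 of the 36 genes had an entry. Capitals mark a match to the TCF and LEF motif on either strand, searched as CTTTG followed by AA, AT, TA or TT. The window of *Fzd7* lies at chr1:59481897-59482146 on the plus strand and holds 1 match. That of *Fzd1*, also called higher in tumor, holds none.
Fzd7: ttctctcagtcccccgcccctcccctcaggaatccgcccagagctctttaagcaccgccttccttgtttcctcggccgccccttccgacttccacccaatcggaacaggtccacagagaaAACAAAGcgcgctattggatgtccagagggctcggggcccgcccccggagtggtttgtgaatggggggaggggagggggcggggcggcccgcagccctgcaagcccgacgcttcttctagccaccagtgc
Of all 32851 promoter windows of that length, 14.8% held at least 1 match, and among those of the 36 genes 4 of 27 did (*Fzd7*, *Wnt5b*, *Wnt11* and *Dkk1*). A match is a description of letters and does not show that a factor binds there.

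Among the ligands *Wnt5a*, the usual example of a Wnt that acts without β-catenin, was higher in both tumors by a similar amount. It stood at 95.8 and 85.9 CPM in tumor, 67.8 and 52.8 CPM at the edge and 21.6 and 25.5 CPM in neural tissue. The 3 regions did not overlap. Its log2 fold change in tumor was 1.94 ± 0.22 (SE, adjusted p = 0.00827, edgeR), with 2.12 in section 1 and 1.73 in section 2. *Wnt9a* went from 4.58 and 5.14 CPM in neural tissue to 10.2 and 17.3 CPM in tumor, a log2 fold change of 1.46 (adjusted p = 0.0280, edgeR).

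*Wnt7b*, a ligand known for its part in the growth of brain vessels and as a Wnt made by mammary epithelium and macrophages, was higher in tumor but unequally so. It stood at 77.7 and 213 CPM in tumor, 97.9 and 144 CPM at the edge and 42.5 and 48.1 CPM in neural tissue. In section 1 the edge was above the tumor and in section 2 below it. The log2 fold change in tumor was 1.53 ± 0.36 (SE, adjusted p = 0.0415, edgeR). This call was among the least secure of the 12, since it was lost under 4 of 11 alternatives, with adjusted p up to 0.0770.

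*Wnt3* and *Wnt7a*, the neuronal ligands named above, were lower in both tumors. *Wnt3* stood at 3.14 and 3.83 CPM in tumor, 5.89 and 7.88 CPM at the edge and 20.8 and 21.8 CPM in neural tissue, and no region overlapped another. Its log2 fold change was -2.62 ± 0.27 (SE, adjusted p = 0.00725, edgeR). *Wnt7a* stood at 4.31 and 5.40 CPM in tumor, 13.3 and 8.91 CPM at the edge and 19.5 and 36.9 CPM in neural tissue, with a log2 fold change of -2.51 ± 0.45 (SE, adjusted p = 0.0213, edgeR). Both genes kept their call under all 11 alternatives. Over the same regions the granule neuron list went from 890 and 1948 CPM in neural tissue to 88.2 and 104 CPM in tumor, and the Purkinje list from 3044 and 5133 CPM to 146 and 122 CPM. The part of these cell types in the difference was not tested.

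The promoter of *Wnt3* is shown as that of a ligand gene lower in both tumors. It lies at chr11:103773925-103774174 on the plus strand and holds no match to the motif.
Wnt3: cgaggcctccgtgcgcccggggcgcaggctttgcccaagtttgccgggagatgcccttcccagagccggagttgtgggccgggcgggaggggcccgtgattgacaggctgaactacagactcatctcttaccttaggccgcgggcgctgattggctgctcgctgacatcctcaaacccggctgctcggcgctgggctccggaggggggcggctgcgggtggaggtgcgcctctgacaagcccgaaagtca

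**Figure D2:**
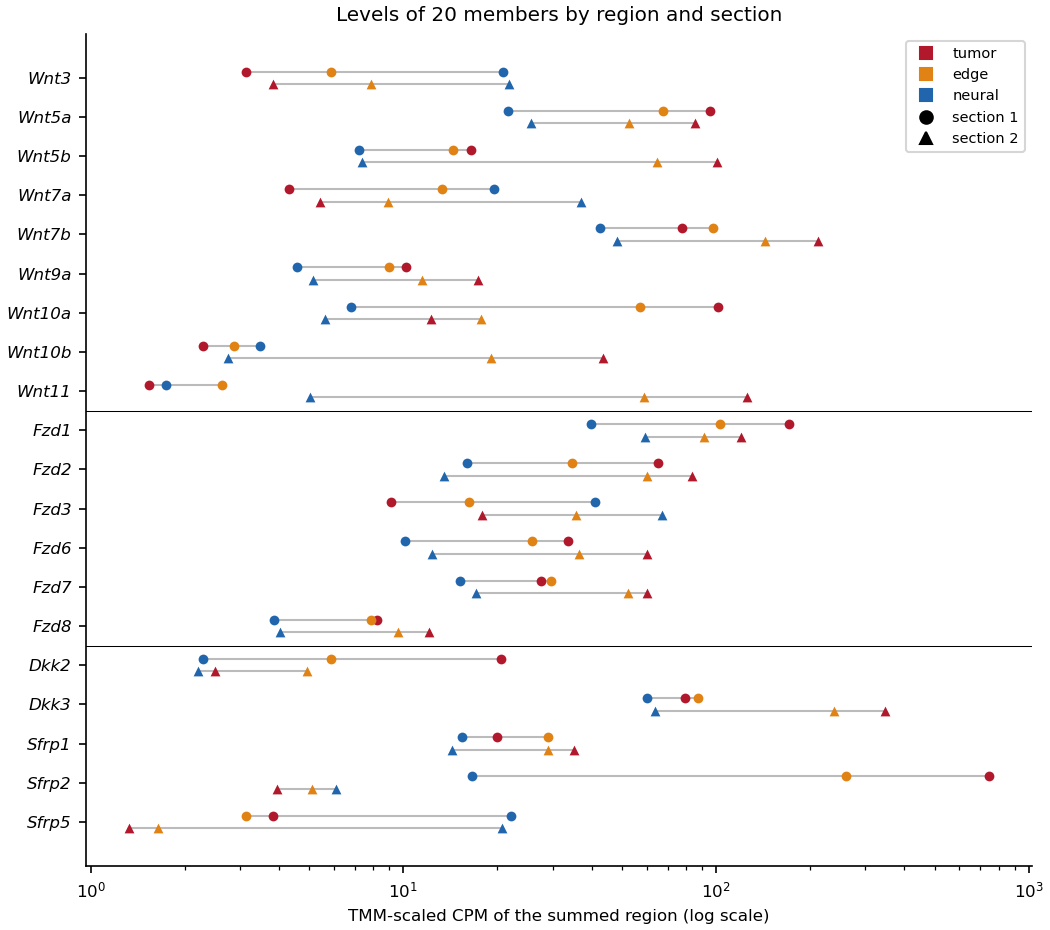
Levels of the 20 genes that were called in a comparison of regions or reached 20 CPM in a region, with TMM-scaled CPM of the summed region on a log axis. Colors stand for tumor, edge and neural tissue, circles for section 1 and triangles for section 2, and horizontal rules part ligands, receptors and inhibitors. *Wnt3*, *Fzd3* and *Sfrp5* are highest in neural tissue in both sections, *Wnt5a*, *Fzd1*, *Fzd2* and *Fzd6* are highest in tumor in both, and *Sfrp2*, *Wnt11* and *Wnt10b* separate from neural tissue in 1 section.

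Among the 8 inhibitors *Sfrp5* alone was called, and *Sfrp2* had the widest gap between the tumors of the 20 genes given with values. *Sfrp5*, a secreted Frizzled-related protein, stood at 3.82 and 1.33 CPM in tumor, 3.13 and 1.64 CPM at the edge and 22.1 and 20.7 CPM in neural tissue. Tumor and edge were alike and both were far below neural tissue in each section. The log2 fold change in tumor was -3.23 ± 0.46 (SE, adjusted p = 0.0131, edgeR), and the call held under all 11 alternatives. *Sfrp1* stood at 19.9 and 35.1 CPM in tumor and 15.4 and 14.3 CPM in neural tissue and was not called (adjusted p = 0.110, edgeR).

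*Sfrp2*, which fibroblasts of tumors and wounds are known to secrete, stood at 746 CPM in the tumor of section 1 and at 3.95 CPM in that of section 2. The edge had 259 and 5.12 CPM and neural tissue 16.6 and 6.09 CPM. In section 1 the tumor was far above neural tissue and in section 2 it was below it, with log2 differences of 5.45 and -0.57. These rest on 24207 and 98 UMIs in tumor, so counting error is small beside the gap. Over both sections the gene was not called (log2 fold change 2.03 ± 1.79 SE, adjusted p = 0.410, edgeR). In the tumor of section 1 fibroblast genes such as *Col1a1* stood at 23776 CPM, against 204 CPM in section 2. With 1 section of each kind, fibroblast RNA, organoid and animal cannot be told apart.

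Other genes also stood apart in 1 tumor. *Wnt10a*, a β-catenin ligand, stood at 101 CPM in the tumor of section 1 and 12.3 CPM in that of section 2, against 6.79 and 5.60 CPM in neural tissue. *Dkk2*, an LRP-binding inhibitor, stood at 20.6 and 2.50 CPM in tumor, against 2.29 and 2.20 CPM. Both were higher in the tumor of section 1, by 7.96-fold for *Wnt10a* and 7.02-fold for *Dkk2* after adding 0.5 CPM to each level.

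Among those of the 20 genes that were higher in the tumor of section 2, rich in epithelial markers, the gap was widest for *Wnt11*, *Wnt10b*, *Wnt5b* and *Dkk3*. *Wnt11*, a ligand of polarity signaling, stood at 1.54 CPM in the tumor of section 1 and 126 CPM in that of section 2, against 1.74 and 5.02 CPM in neural tissue. *Wnt10b*, a ligand known to drive growth of mammary epithelium, stood at 2.28 and 43.4 CPM in tumor, against 3.47 and 2.75 CPM. For both the tumor was above neural tissue in section 2 and no higher than it in section 1. *Wnt5b*, the close relative of *Wnt5a*, stood at 16.5 and 101 CPM in tumor, against 7.22 and 7.37 CPM. *Dkk3* stood at 79.5 and 346 CPM in tumor, against 60.0 and 63.6 CPM. For these the tumor was above neural tissue in both sections, by a log2 difference of 1.13 and 3.68 for *Wnt5b* and of 0.40 and 2.44 for *Dkk3*. None of the 7 genes from *Sfrp2* to *Dkk3* was called over both sections by edgeR, with adjusted p from 0.0703 (*Wnt10a*) to 0.410 (*Sfrp2*). DESeq2 called 4 of them, *Wnt10a*, *Dkk2*, *Wnt5b* and *Dkk3*. The share of all genes that DESeq2 called was not counted, so no weight is put on these 4. The difference between the sections was not tested, because each section gives 1 tumor sum.

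The promoters of *Sfrp2* and *Wnt11* are shown as those of the genes with the widest gap between the tumors. *Sfrp2* lies at chr3:83766071-83766320 on the plus strand and the first of the *Wnt11* entries at chr7:98834862-98835111 on the plus strand. This window of *Wnt11* holds 1 match, while that of *Sfrp2* and that of the other *Wnt11* entry hold none.
Sfrp2: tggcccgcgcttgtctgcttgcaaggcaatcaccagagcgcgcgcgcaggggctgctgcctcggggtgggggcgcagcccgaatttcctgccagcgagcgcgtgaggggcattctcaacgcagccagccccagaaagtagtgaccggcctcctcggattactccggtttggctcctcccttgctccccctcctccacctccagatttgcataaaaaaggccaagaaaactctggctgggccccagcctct
Wnt11: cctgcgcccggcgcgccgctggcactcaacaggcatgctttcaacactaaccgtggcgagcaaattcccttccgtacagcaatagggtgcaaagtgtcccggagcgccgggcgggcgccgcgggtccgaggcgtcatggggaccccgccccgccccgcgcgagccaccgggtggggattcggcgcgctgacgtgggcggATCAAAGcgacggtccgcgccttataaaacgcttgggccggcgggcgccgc

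**Figure D3:**
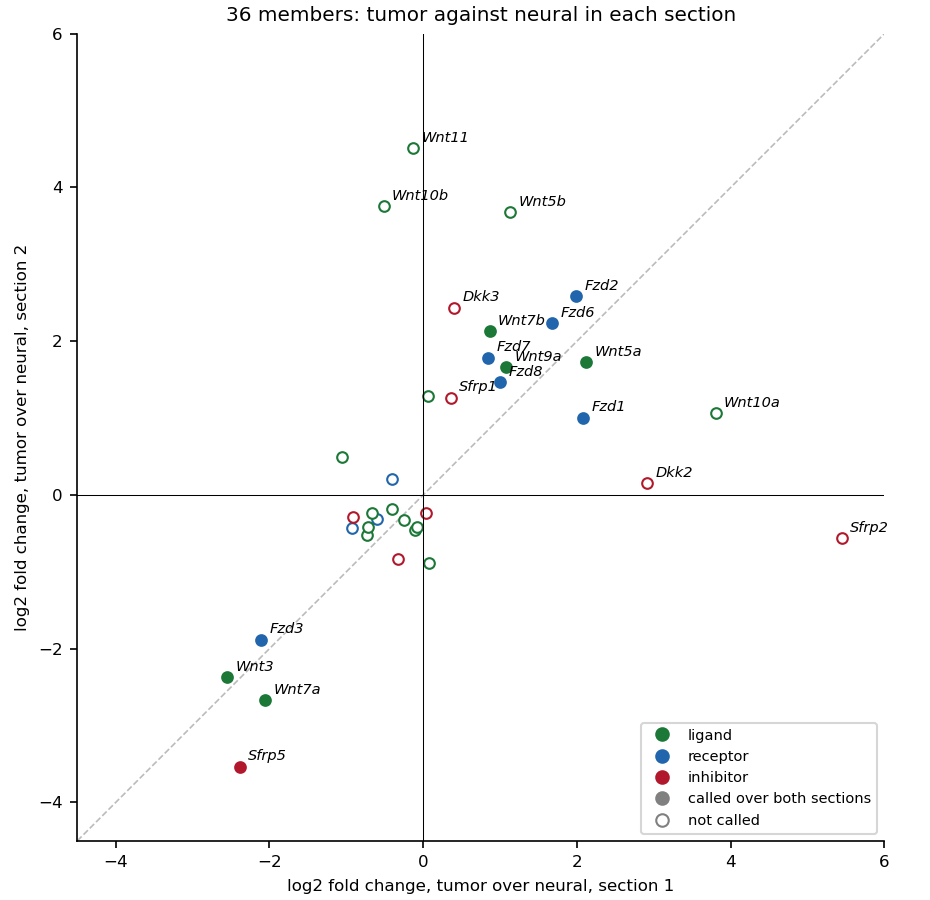
Log2 fold change of tumor over neural tissue in section 1 (x axis) and section 2 (y axis) for the 36 genes, from CPM with 0.5 added. Filled points were called over both sections by edgeR, open points were not, colors give the role, and the dashed line marks equal values. Called genes lie in the same direction in both sections, which a call over both sections favors. *Sfrp2* at 5.45 and -0.57 and *Wnt11* at -0.13 and 4.52 lie far from the line.

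At the edge 6 genes differed from neural tissue, all of them also called in tumor. *Fzd2*, *Fzd6* and *Wnt5a* were higher and *Fzd3*, *Sfrp5* and *Wnt3* lower, where 7.54% of all genes were called higher and 8.32% lower. The log2 fold changes at the edge were 1.64 for *Fzd2*, 1.45 for *Fzd6*, 1.35 for *Wnt5a*, -1.13 for *Fzd3*, -3.28 for *Sfrp5* and -1.64 for *Wnt3*, with adjusted p from 0.0251 to 0.0393 (edgeR). Each value was nearer to 0 than in tumor except for *Sfrp5*, which was as low at the edge, but none of these gaps between tumor and edge was called. The median over the 36 genes was 0.39, beside -0.08 over all genes. By level the median of all genes was -0.28 under 5 CPM and 0.18 over 20 CPM. Of the 20 genes described by level, 12 had the edge between tumor and neural tissue in both sections, and none had it above both regions in both sections. The edge pools spots of both sides, so mixing alone would give a level in between. The share of all genes with such an edge was not counted, so the 12 are not read as a trait of these genes. The count of calls at the edge was 12 with DESeq2 and 13 with the edge split into its sides. The share of all genes called under these alternatives was not counted, so the higher counts may not be particular to the 36. Calls were lost for *Fzd3* (adjusted p = 0.300) and *Fzd6* (adjusted p = 0.0761) when the section was left out of edgeR's fit, and for *Fzd2* (adjusted p = 0.0699) with the higher threshold of neural markers.

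Between tumor and edge no gene of the 36 was called, nor was any of all 19220 genes (0% called) by edgeR, and DESeq2 also called none of the 36. At an unadjusted p under 0.05 (edgeR), 6 of the 36 passed, but the share of all genes passing was not counted, so no weight is put on it. The widest log2 differences were -1.22 for *Wnt7a*, -1.03 for *Wnt2b* and 1.01 for *Sfrp2*, each with an adjusted p above 0.4.

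Spots were then ordered by their distance from the border in array steps, negative on the tumor side. These levels are plain CPM of all spots at a step, and 95% intervals are exact Poisson intervals that cover counting error only. *Wnt7b* in section 1 was highest at the last step of the tumor, 122 CPM (109 to 138), and lower 8 or more steps inside, 61.0 CPM (57.7 to 64.5). In section 2 it stood at 184 CPM (178 to 191) deep inside and 161 CPM (148 to 175) at the last step. In both it had come down to neural levels by step 3, with 44.5 and 46.0 CPM. The profile of this gene thus peaked at the border in section 1 and inside the tumor in section 2.

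*Sfrp2* in section 1 was highest a short way inside, with 1063 CPM at step -7, against 536 CPM (526 to 546) deeper in and 260 CPM (239 to 282) at step -1. It still stood at 92.5 CPM (78.0 to 109) at step 1 on the neural side. *Dkk2* in section 1 ran differently, from 24.5 CPM (22.4 to 26.7) deep inside to 6.17 CPM (3.37 to 10.3) at step -1. *Sfrp1* in section 1 stood at 11.2 CPM (9.75 to 12.7) deep inside and 37.9 CPM (31.0 to 45.9) at step -2. In this tumor, then, *Sfrp2* was highest between the depth and the border and lowest at the border, *Sfrp1* was higher near the border than in the depth, and *Dkk2* was highest in the depth. *Wnt11* in section 2 stood at 116 CPM (111 to 121) deep inside, 67.3 CPM at step -1, 36.3 CPM at step 1 and 5.85 CPM at step 5.

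The genes lower in tumor differed in how near the border they reached their distant level. *Wnt7a* in section 1 stood at 9.69 CPM (6.07 to 14.7) at step -1, at 24.4 CPM (17.3 to 33.5) at step 1 and at 23.9 CPM from step 8 on. In section 2 it stood at 4.93, 10.5 and 41.1 CPM at these steps and so was not yet at its distant level at step 1. *Wnt3* in section 1 stood at 5.29 CPM at step -1, 8.35 CPM (4.45 to 14.3) at step 1 and 26.7 CPM (24.2 to 29.3) from step 8 on, and in section 2 at 4.64, 12.9 and 24.3 CPM. *Sfrp5* was below its distant level over a longer stretch, at 13.5 CPM (6.49 to 24.9) and 10.0 CPM (4.32 to 19.7) at step 7 and at 31.8 and 24.2 CPM beyond it. The tissue near a border also differs from distant tissue in its cell types, and their part in these profiles was not tested.

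**Figure D4:**
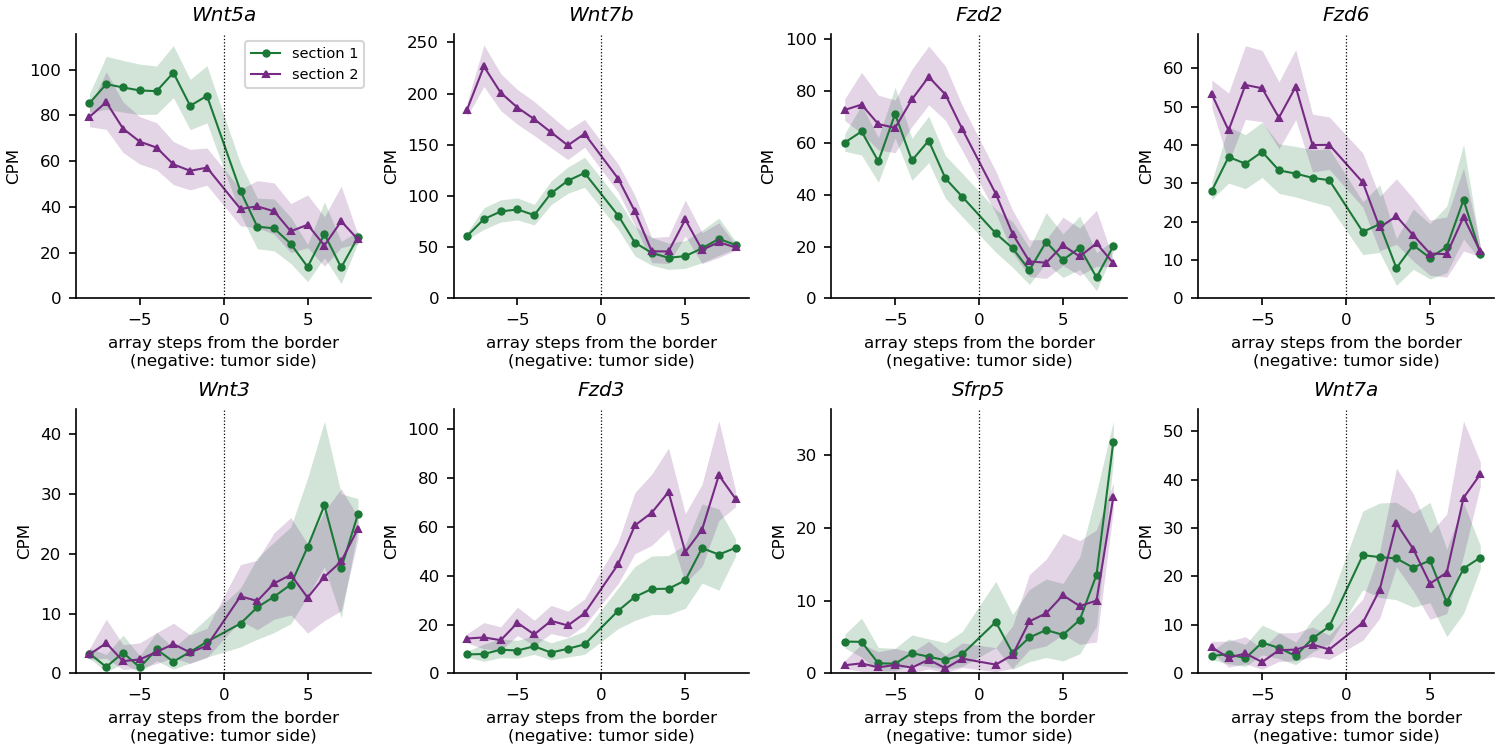
Plain CPM of 8 genes against array steps from the border, with the tumor at negative steps and all spots 8 or more steps away pooled at each end. Green circles are section 1, purple triangles section 2, and bands are 95% Poisson intervals. *Wnt5a*, *Wnt7b*, *Fzd2* and *Fzd6* come down across the border, and *Wnt3*, *Fzd3*, *Sfrp5* and *Wnt7a* are lowest inside the tumor.

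Within tumor tissue, the spots with the highest score for a marker list were set beside as many with the lowest, 162 in section 1 and 167 in section 2, as a description of 1 section each. The pairs of gene and list given are a selection from all of them, and the depth of the compared spots was not examined. In section 1 *Sfrp2* stood at 806 CPM in spots rich in neural markers and 206 CPM in spots poor in them, and *Wnt10a* at 108 and 33.7 CPM. For the fibroblast list *Sfrp2* stood at 839 and 699 CPM, a smaller gap than by the neural list. *Wnt5b* had 19.6 and 9.30 CPM by the fibroblast list in section 1. In section 2 *Wnt11* stood at 134 CPM in spots rich in epithelial markers and 83.1 CPM in spots poor in them, and *Fzd2* at 80.9 and 53.2 CPM. *Wnt5a* hardly moved with the macrophage list, with 88.7 and 85.2 CPM in section 1 and 70.0 and 69.1 CPM in section 2.

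Neural spots were also classed by their leading marker list, and granule-rich spots were compared with myelin-rich spots (319 and 403 against 409 and 564 spots in sections 1 and 2). Of the 36 genes 6 were higher in granule-rich spots, *Wnt7a*, *Fzd1*, *Dkk2*, *Wnt6*, *Wnt9a* and *Wnt9b*, and 5 were lower, *Sfrp5*, *Wnt7b*, *Wnt5a*, *Sfrp1* and *Fzd2*. Of all 18103 genes tested, 12.7% were higher and 16.9% lower. Under library size alone, which moved the median of all genes from 0.02 to 0.31, the split was 13 higher and 1 lower. The share of all genes called on that scale was not counted, so this split is not to be read against the shares above. The 6 higher genes and *Sfrp5* were called on that scale too, while *Wnt7b*, *Wnt5a*, *Sfrp1* and *Fzd2* were not. Only *Wnt7a* and *Sfrp5* were called when the section was left out of the fit.

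*Wnt7a* stood at 40.6 and 93.7 CPM in granule-rich spots and at 15.8 and 14.3 CPM in myelin-rich spots of sections 1 and 2, in plain CPM. Both granule-rich values lay above both others, and the log2 fold change was 1.83 ± 0.31 (SE, adjusted p = 0.00878, edgeR). *Fzd1* stood at 94.1 and 71.4 CPM against 31.0 and 33.9 CPM, a log2 fold change of 1.08 (adjusted p = 0.0345, edgeR). It was also at 87.0 and 127 CPM in spots led by Purkinje markers.

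*Sfrp5* stood at 12.9 and 4.62 CPM in granule-rich spots against 27.1 and 28.0 CPM in myelin-rich spots, a log2 fold change of -2.07 ± 0.36 (SE, adjusted p = 0.00900, edgeR). Spots led by brainstem neuron markers had 40.9 and 31.4 CPM, and those led by astrocyte and Bergmann glia markers 18.5 and 46.2 CPM. *Wnt7b* stood at 36.8 and 13.7 CPM against 45.6 and 76.1 CPM and was thus close in section 1 and far apart in section 2, with a log2 fold change of -1.65 ± 0.46 (SE, adjusted p = 0.0412, edgeR). *Wnt3* differed little between granule-rich and myelin-rich spots, with 24.9 and 20.2 against 21.6 and 20.0 CPM. In section 2 it was highest in spots led by Purkinje markers, with 34.4 CPM. In section 1 such spots had 28.4 CPM, beside 28.5 CPM in spots led by astrocyte and Bergmann glia markers.

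The remaining calls in granule-rich spots rest on low levels. *Wnt6* had 6.68 and 7.23 CPM there against 3.23 and 1.59 CPM, and *Dkk2* 5.66 and 4.62 CPM against 1.62 and 1.36 CPM. All genes with a mean under 5 CPM had a median log2 fold change of 0.90 in this comparison, beside -0.26 for genes over 20 CPM. The calls of *Wnt6* (1.33) and *Wnt9b* (1.13), with means of 2.61 and 3.32 CPM, are to be read against that shift. *Dkk2* (1.49) and *Wnt9a* (1.21) had means of 6.39 and 9.62 CPM over the 6 region sums. Genes of 5 to 20 CPM had a median of -0.03. In neural tissue alone *Dkk2* stood at 2.29 and 2.20 CPM and *Wnt9a* at 4.58 and 5.14 CPM. DESeq2 made none of these 4 calls.

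**Figure D5:**
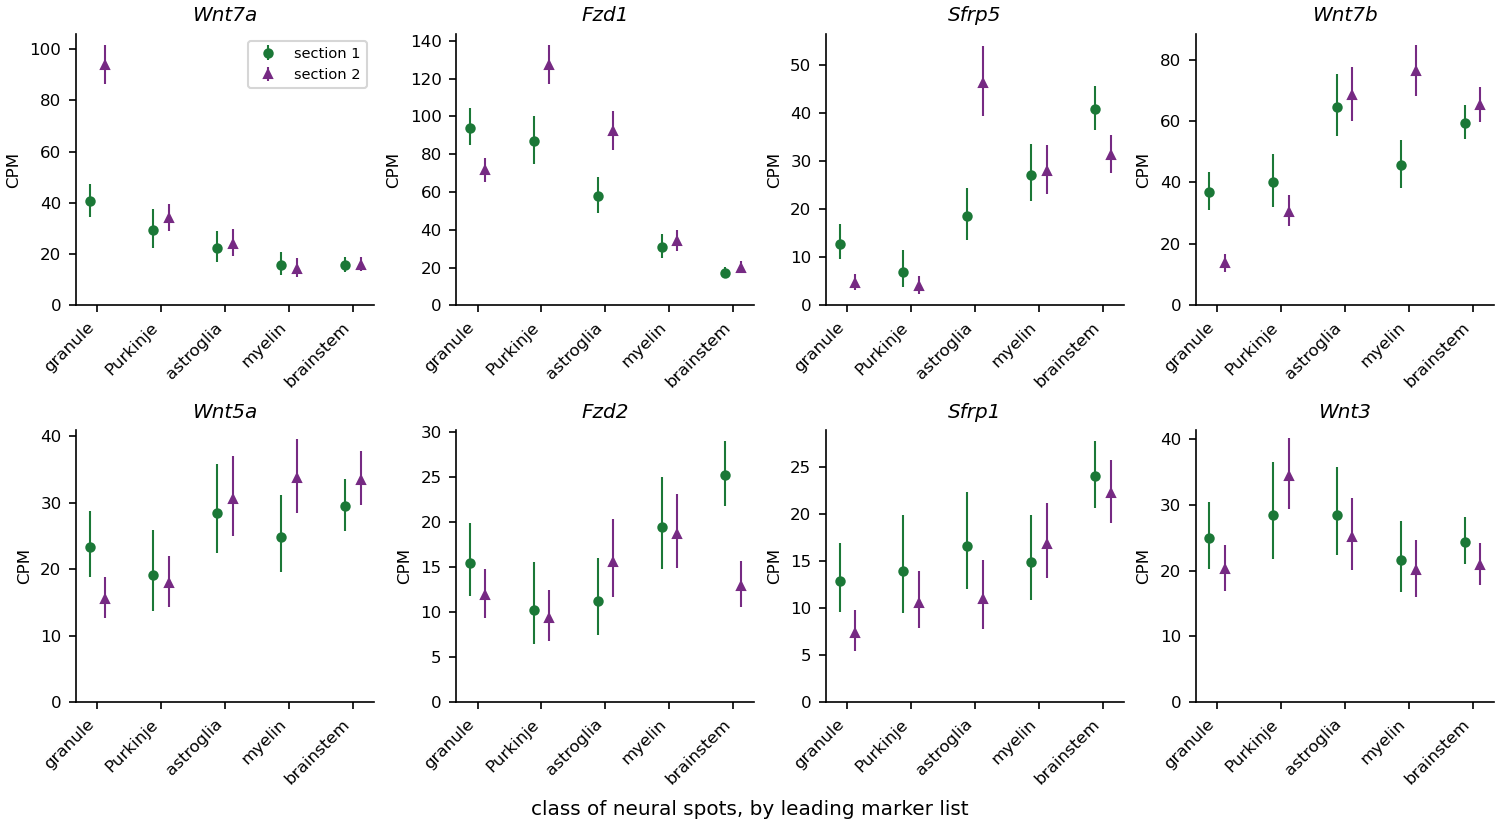
Plain CPM of 8 genes in neural spots classed by their leading marker list, with 95% Poisson intervals. Green circles are section 1 and purple triangles section 2. Spots led by choroid plexus markers are not drawn. *Wnt7a* is highest in granule-rich spots in both sections (40.6 and 93.7 CPM), and *Sfrp5* is higher in myelin-rich and brainstem-like spots than in granule-rich ones.

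The other 16 genes stayed between 0.627 and 15.3 CPM in every region of both sections. They are *Wnt1*, *Wnt2*, *Wnt2b*, *Wnt3a*, *Wnt4*, *Wnt6*, *Wnt8a*, *Wnt8b*, *Wnt9b*, *Wnt16*, *Fzd4*, *Fzd9*, *Fzd10*, *Dkk1*, *Dkk4* and *Sfrp4*. All passed the filter on low counts and none was called between regions in the main fits. With library size as the only scaling, some of them were called lower in tumor. Their log2 fold changes in tumor ran from -0.74 to 0.76 with a median of -0.43, and all genes with a mean under 5 CPM had a median of -0.46. Among these *Wnt1* stood at 2.99 and 7.62 CPM in tumor against 2.84 and 2.81 CPM, and *Wnt4* at 2.77 and 7.29 CPM against 6.31 and 5.05 CPM, so that *Wnt4* ran in opposite directions in the sections.

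The wider pathway was followed in a list of 90 other genes, all measured and tested. In tumor 23 were higher and 16 lower, where 14.0% of all genes were called higher and 15.8% lower. The median log2 fold change was 0.39 over the list and -0.13 over all genes. The latter depends on level, with -0.46 for all genes with a mean under 5 CPM and 0.34 for those over 20 CPM. Many of the listed genes stand above 20 CPM, so their median is not read as a rise of the pathway. The coreceptors and other Wnt receptors held 5 higher and 0 lower of 12, and the nuclear factors 5 and 0 of 12. Genes for ligand release and extracellular partners held 2 and 4 of 13, and those of the intracellular relay 3 and 3 of 16. Other secreted or membrane inhibitors held 1 and 2 of 13, and planar polarity genes 1 and 3 of 10. At the edge 11 of the 90 were higher and 8 lower, beside 7.54% and 8.32% of all genes.

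*Wls*, which carries Wnts to the cell surface, stood at 556 and 388 CPM in tumor and at 55.1 and 68.3 CPM in neural tissue. Both tumors were several times above both neural regions, and the log2 fold change was 2.91 ± 0.29 (SE, adjusted p = 0.00687, edgeR). *Gpc4*, a cell-surface proteoglycan that binds Wnts, stood at 101 and 50.6 CPM against 6.83 and 8.07 CPM, a log2 fold change of 3.24 (adjusted p = 0.00895, edgeR). The genes with the lowest values in tumor were *Apc2* (-4.16), the neuronal relative of the β-catenin brake APC, and the planar polarity genes *Celsr3* (-3.90) and *Daam2* (-3.36), all highest in neural tissue. At the edge the lowest were *Apc2* (-2.55), *Daam2* (-2.18) and the R-spondin *Rspo2* (-1.82), which boosts Wnt receptors. The value of *Rspo2* rests on low levels, from 0.819 CPM at the edge to 3.30 CPM in neural tissue, both in section 2. It is to be read beside the median of -0.28 at the edge for all genes with a mean under 5 CPM. Among the called genes of the list, the highest at the edge were *Cd44* (2.70), *Ccnd1* (2.40) and *Myc* (2.40).

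Of 21 genes commonly used as targets of β-catenin, 7 were higher in tumor and 4 lower, beside 14.0% and 15.8% of all genes. *Axin2*, a feedback inhibitor and the most used of them, stood at 42.4 and 41.3 CPM in tumor, 33.8 and 28.0 CPM at the edge and 18.9 and 20.5 CPM in neural tissue. Its tumors were above its neural regions by nearly the same amount, with a log2 fold change of 1.09 ± 0.21 (SE, adjusted p = 0.0243, edgeR). The others that were higher were *Myc* (2.89), *Cd44* (2.77), *Ccnd1* (2.44), *Tcf7* (2.42), *Fosl1* (1.84) and *Jun* (1.63), several of which also respond to other growth or stress signals. Those lower were *Nrcam* (-3.09), a neuronal adhesion gene, *Tnfrsf19* (-2.93), *Nkd1* (-1.95), a feedback inhibitor, and *Sp5* (-1.72), a transcription factor. At the edge *Tcf7* (2.02), *Jun* (1.69), *Cd44*, *Ccnd1* and *Myc* were higher and *Nrcam* (-0.87) lower. Proliferation markers, which move with several of these targets, summed to 528 and 515 CPM in tumor against 61.0 and 70.2 CPM in neural tissue, and their part in the target values was not tested.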

How the data were processed

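The Visium CytAssist probe assay was run on 5 µm sections of 2 replicates. The submitters' processing notes name Space Ranger 2.1.1 and mm10. What the authors deposited are unnormalized whole-number UMI counts for each gene in each tissue-covered spot. The region of interest and the clusters of the study were not used here. The members and gene lists were chosen with earlier results of these data known.

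Spots with at least 500 UMIs and 10 genes were split in each section at the Otsu threshold of log2 CPM of 25 measured neural markers. Tumor was made up of connected groups of at least 30 low spots with more epithelial and fibroblast than choroid plexus CPM, neural tissue of such groups of high spots, and the edge of spots within 2 array steps of the other side. Section 1 left 15 spots out of these groups and 91 under the minimum, and section 2 left out 102, of which 38 carried choroid plexus markers, and 18. The sections share 3096 barcodes, which are array positions and not cells.

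UMIs were summed into 6 libraries of 7677574 to 35047150 UMIs, where 1 UMI is 0.031 to 0.125 CPM. For genes with many UMIs counting error is small at these depths, and 2 sections set the precision. It is larger for low genes, whose smallest region sum held 5 UMIs. *Sfrp5*, called at the edge, had 25 and 16 UMIs there in sections 1 and 2. Fits used edgeR 4.0.16 in R 4.3.3 (filterByExpr by region, TMM, robust glmQLFit, glmQLFTest) with the section as a block and 2 residual degrees of freedom. The regions of a section come from 1 mouse, which is the source of the pairing. With this block edgeR's common dispersion came to 0.0931, against 0.177 otherwise. Neural spots took the class of the marker list with the highest z-score, and granule-rich, myelin-rich and other spots were fitted alike. Fold changes within a section are log2 ratios of CPM with 0.5 added. Genes given with values were those called between regions or at 20 CPM or more in a region of either section, 20 in all. Of the pathway list these were the 3 called genes with the largest change in each direction and every called target. Python 3.11.15 (pandas 2.3.3, numpy 2.4.6, scipy 1.17.1) gave the border steps, the groups of spots by marker score and the exact Poisson intervals. Plots were drawn with matplotlib 3.10.9. The fits were also run on counts simulated with the same spread for every gene and no difference between the sections. That run does not bear on how secure the calls are. Alternatives were DESeq2 1.42.0, RLE factors, library size as the only scaling, no filter, no block, an edge of 1 or 3 steps or split into its sides, a threshold 0.5 log2 units lower or higher, a minimum of 1000 UMIs per spot and each section alone. A test of spots is no test of animals, so none was run over spots.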

Additional observations from a re-analysis of the deposited data

Results flagged for a closer look

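Of the 20 genes given with values, *Sfrp2*, *Wnt10b* and *Wnt11* had their tumor on opposite sides of neural tissue in the 2 sections, as did *Wnt4*, *Fzd4*, *Wnt6* and *Dkk1* among the other 16 genes. The log2 difference of tumor from neural tissue was 5.45 in section 1 and -0.57 in section 2 for *Sfrp2*. For *Wnt10b* it was -0.52 and 3.75, and for *Wnt11* -0.13 and 4.52. The negative values of *Wnt11* and *Wnt10b* in section 1 rest on levels of 1.54 to 3.47 CPM. That of *Sfrp2* in section 2 also rests on low levels, 3.95 CPM in tumor and 6.09 CPM in neural tissue. The difference between the sections was not tested.

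A group of 38 spots in section 2, with 456916 UMIs, entered no comparison because its choroid plexus markers (7984 CPM over the list) exceeded its epithelial and fibroblast markers. In it *Sfrp1* stood at 337 CPM (95% Poisson interval 286 to 395), *Fzd4* at 155 CPM (121 to 196), *Fzd7* at 131 CPM (100 to 169) and *Sfrp5* at 41.6 CPM (25.0 to 64.9), in plain CPM. For *Sfrp1*, *Fzd4* and *Fzd7* the interval lies above the level of the gene in every region of both sections, whereas for *Sfrp5* its lower end is within the range of neural tissue. *Wnt7b* had 1 UMI there and *Sfrp2* 0 UMIs. Section 1 held no such group, so this is 1 group of 1 section.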

How the results depend on the processing

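Over the 20 genes given with values, 3 comparisons and 11 alternatives, 620 of 660 fold changes kept their direction and their side of the threshold, 11 lost a call, 19 gained one and 10 changed sign. All sign changes were between tumor and edge, where nothing was called. *Sfrp5* (0.05) became -0.10 with library size only, -0.33 and -0.14 with an edge of 1 and 3 steps, -0.38 with the higher threshold and -0.0077 with the edge split. *Sfrp1* (-0.11) became 0.15 with an edge of 1 step, 0.048 with the higher threshold and 0.041 with the edge split. *Fzd7* (0.07) became -0.065 with library size only, and *Wnt7b* (0.16) became -0.049 with the lower threshold. Members called between tumor and neural tissue ran from 9 without the section as a block to 16 with DESeq2 (12 in the report). At the edge 6 became 12 with DESeq2 and 13 with the edge split, and all 6 were among them. Without the replicate block the edge had 4, all among the 6. In granule-rich against myelin-rich spots 11 became 6 with DESeq2 and 2 without the replicate block (*Wnt7a* and *Sfrp5*). The share of all genes called was counted for the main fits only. The pairing by section comes from the design. With 1 section left out there is no residual spread, so no count can be had. For each of the 12 genes called in tumor, the value of either section alone kept its sign, with a range from 0.84 (*Fzd7*) to 2.59 (*Fzd2*) for those higher and from -3.53 (*Sfrp5*) to -1.88 (*Fzd3*) for those lower. A call over these same 2 sections favors genes with 1 direction in both, so the shared sign is no separate support. The cause of these changes was not tested. Depth limits the 16 low genes, whose smallest region sum held 5 UMIs.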
